A study of Homo sapiens with 24 samples.

Results

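The 43 genes described here encode proteins of homologous recombination, the Fanconi anaemia pathway and the DNA damage checkpoint. They were taken by symbol from a list of these pathways. The rule itself uses no measured value, but the list was chosen with earlier results of these data known. Each gene was matched to the Ensembl gene identifiers of the count table, giving 43 of 19702 genes. Their messenger RNA was followed in PC9 and H1975, established lines from human adenocarcinomas of the lung in which mutant EGFR, a growth factor receptor, is active. Each line was kept for 24 h as a control, with almonertinib, a covalent inhibitor of mutant EGFR, with paclitaxel, a taxane that stabilises microtubules, or with both drugs. Single doses in PC9 were 2 nM for almonertinib and 0.3 nM for paclitaxel, in H1975 1 nM for each, and the labels give no separate doses for the combination. A difference between the lines is therefore one of line and dose together. Every group had 3 libraries, 24 in all, and the labels do not say whether the 3 came from separate cultures, so the p-values rest on a spread between libraries that may be technical only.

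Homologous recombination rebuilds a broken chromosome from its sister copy: the broken ends are cut back to single strands, the BRCA proteins prepare these for pairing with the sister, and the joined molecules are taken apart by helicases. The Fanconi proteins open crosslinked DNA by marking FANCI and FANCD2 with ubiquitin, and the kinases ATM and ATR with their effectors CHEK2 and CHEK1 hold the cell cycle while damage or stalled forks persist. In dividing cells many genes of these pathways are transcribed most around DNA synthesis, and EGFR signalling promotes entry into it.

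The promoters of 4 members are shown because their genes carry the clearest differences below: RAD54L, UBE2T and EXO1, the 3 members with the smallest p among those lower in PC9 combination than in PC9 paclitaxel and with an entry in the promoter table, and CHEK2, the only member higher in that comparison. Sequences are from RefSeq on GRCh38.p14, from 250 bases before to 50 bases after the annotated start, 5′ to 3′ on the strand of the gene. RAD54L lies at chr1:46247438-46247737 on the plus strand, UBE2T at chr1:202341887-202342186 on the minus strand, EXO1 at chr1:241847954-241848253 on the plus strand and CHEK2 at chr22:28741771-28742070 on the minus strand. Capitals mark matches on either strand to 3 motifs searched: the E2F site as TTTCCCGC, TTTGGCGC, TTTCGCGC or TTTGCCGC, and the CCAAT box, which reads ATTGG when it lies on the other strand. The third motif was the cell cycle homology region, CHR, with the spelling TTTGAA in its usual form. TTCGAA was accepted for it too. None of these spellings contains another.
RAD54L: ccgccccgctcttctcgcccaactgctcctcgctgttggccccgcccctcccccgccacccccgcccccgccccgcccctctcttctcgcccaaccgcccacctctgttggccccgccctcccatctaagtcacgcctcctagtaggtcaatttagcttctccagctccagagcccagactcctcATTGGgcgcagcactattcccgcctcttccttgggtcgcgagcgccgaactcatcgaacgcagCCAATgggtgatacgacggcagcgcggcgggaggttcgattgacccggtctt
UBE2T: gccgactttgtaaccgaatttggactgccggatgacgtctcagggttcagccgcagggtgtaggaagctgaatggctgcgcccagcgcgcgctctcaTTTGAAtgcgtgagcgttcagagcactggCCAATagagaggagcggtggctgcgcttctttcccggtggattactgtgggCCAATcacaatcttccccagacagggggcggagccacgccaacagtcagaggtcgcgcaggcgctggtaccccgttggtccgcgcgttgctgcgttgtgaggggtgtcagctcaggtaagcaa
EXO1: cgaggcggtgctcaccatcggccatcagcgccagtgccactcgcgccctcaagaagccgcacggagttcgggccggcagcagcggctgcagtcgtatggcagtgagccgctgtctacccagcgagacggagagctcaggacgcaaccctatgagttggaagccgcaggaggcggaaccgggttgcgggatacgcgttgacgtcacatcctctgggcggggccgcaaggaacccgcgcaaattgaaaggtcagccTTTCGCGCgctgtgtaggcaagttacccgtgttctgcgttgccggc
CHEK2: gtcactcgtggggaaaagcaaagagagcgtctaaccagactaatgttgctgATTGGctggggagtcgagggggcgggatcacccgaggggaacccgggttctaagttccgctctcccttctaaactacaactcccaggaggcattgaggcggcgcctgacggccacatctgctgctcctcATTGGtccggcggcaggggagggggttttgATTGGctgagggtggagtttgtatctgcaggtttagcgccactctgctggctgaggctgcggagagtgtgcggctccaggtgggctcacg

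The window of RAD54L held 2 CCAAT boxes, that of UBE2T held 1 CHR and 2 CCAAT boxes, that of EXO1 held 1 E2F site and that of CHEK2 held 3 CCAAT boxes. Promoters were in the table for 38 of the 43 members, and NBN, FANCI, RMI2, WRN and RAD54B had no entry. An E2F match was in 7 of the 38 windows (EXO1, FANCA, FANCC, FANCD2, MSH6, TOPBP1 and XRCC2), against 3.31% of all 35116 promoters of the same length. All 7 belong to the 30 matched members that were lower in PC9 combination than in PC9 paclitaxel, and none to the 8 other matched members, a split of few matches that was not tested. A CCAAT box was in 18 of 38 windows (34.6% of all promoters), 14 of the 30 and 4 of the 8. A CHR was in 5 of 38 (16.4% of all promoters), 4 of the 30 and 1 of the 8. These matches describe letters in a window and not bound sites.

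Totals ran from 14232299 to 24245314 counts per library. All 43 members passed the filter on low counts in both lines. Abundance is expressed as CPM, the usual scaling of a gene's counts to the size of its library. Of 8 epithelial and lung carcinoma markers, 8 exceeded a mean of 10 CPM in H1975 and 7 in PC9, where the lung lineage factor NKX2-1 was at 0.961 CPM. Each of the lists of leukocyte (6 genes), fibroblast (6) and endothelial markers (5) summed to at most 23.4 CPM in any library. COL1A2, LUM and CLDN5 were at 0 in all. COL1A1 had a mean of 16.5 CPM in PC9 and 9.19 CPM in H1975, CD14 8.21 CPM in H1975 and CDH5 6.22 CPM in PC9. In 4 groups 1 library stood apart from the other 2, namely PC9 almonertinib library 3 (mean correlation of log2 CPM 0.9825, against 0.9944 between the other 2), H1975 control library 3 (0.9837 against 0.9935), H1975 almonertinib library 1 (0.9557 against 0.9901) and H1975 paclitaxel library 1 (0.982 against 0.9949). The same 4 libraries differed from their group in how abundance followed transcript length across genes. The rank correlation of a gene's deviation from its line mean with its transcript length was -0.402 in PC9 almonertinib library 3 against 0.165 and 0.0404 in the other 2, and 0.353 in H1975 control library 3 against -0.247 and -0.253. In H1975 almonertinib library 1 it was -0.306 against 0.41 and 0.103, and in H1975 paclitaxel library 1 it was 0.351 against -0.492 and -0.498. Counts of called members that rest on these libraries are given with and without them. Mitochondrially encoded genes took 2.502% of the counts in H1975 paclitaxel library 1 and 1.04% and 0.977% in the other 2 of that group.

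Transcript composition bears directly on these genes, which encode many large proteins. Taking 1 principal protein-coding transcript per gene, the members' median length was 4580 bases against 3055 over all genes tested in PC9, and 31 of 43 were longer than that median. Their median GC content was 41.9% against 50.2%, and 34 of 43 lay below the median. In PC9 paclitaxel the libraries themselves held more of the long transcripts (mean rank correlation with length 0.30 ± 0.0254, SD, n = 3) than the PC9 controls (-0.184 ± 0.0504, SD, n = 3). Differences are therefore given from the counts as deposited and, where a call of a named gene ends or turns, also after a smooth trend on transcript length and GC content over all genes was removed from each library. Whether that trend arose in the cells or in the libraries was not tested.

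Per kilobase of transcript, the levels of the members spanned a wide range and ran in a similar order in the untreated lines (rank correlation 0.923 over 43 genes, which share the libraries). In PC9 controls the highest mean levels were those of PARP1, a sensor of strand breaks, at 68.6 CPM per kilobase, UBE2T, the ubiquitin-conjugating enzyme of the Fanconi core complex, at 56.7, and CHEK2 at 45.9. The lowest were RAD50 at 0.0638 and ATM at 0.0682 CPM per kilobase. In H1975 controls UBE2T led at 69.5 CPM per kilobase, followed by XRCC3 at 62.8 and PARP1 at 50.1, with RAD50 last at 0.177. CHEK2 ranked 3 of 43 in PC9 and 8 of 43 in H1975. RAD50, FANCB, RAD54B, FANCM and ATM rested on few reads in PC9. In the 3 controls RAD50 had 13, 3 and 10 raw counts and ATM had 14, 21 and 7. BRIP1, at 21, 23 and 13, and BRCA2, at 30, 33 and 14, were also low in these controls. Differences of these genes are therefore imprecise.

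In PC9 under almonertinib ATM, ATR and the break-binding genes RAD50 and NBN were higher, and CHEK2, TIMELESS and 5 of 8 strand exchange genes were lower. Of the 43 members, 12 were higher and 12 lower than control at an edgeR adjusted p under 0.05, against 28.9% higher and 27.8% lower over all 12796 genes tested, so that the share of members called was close to that of all genes. The members' median log2 difference was 0.05, that of all genes 0.03. Mitochondrially encoded genes took 0.638% ± 0.196 of the counts with almonertinib and 1.30% ± 0.0792 in the controls (SD, n = 3 each), and the part of this in the differences was not tested. With the length and GC trend removed, 8 members were higher and 15 lower (30.1% and 30.7% of all genes), and without library 3 of the treated group, which stood apart, 15 were higher and 13 lower (32.4% and 30.4% of all genes).

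CHEK2 (ENSG00000183765, chr22:28687743-28742422, minus strand, GRCh38), the kinase that relays ATM signalling, gave the smallest p of any member. Its level was 69.2, 92.0 and 92.8 CPM in the PC9 controls and 22.2, 21.0 and 19.8 CPM with almonertinib. Every treated library lay below every control. The mean fell from 84.7 ± 13.4 to 21.0 ± 1.15 CPM (SD, n = 3 each), a log2 difference of -2.01 ± 0.11 (SE; edgeR adjusted p = 4.8e-10), and of -1.93 with the trend removed. CHEK2 has 4 named pseudogenes in the annotation and overlaps HSCB on the opposite strand, and since the strand counted is not given in the sources used here, reads of these cannot be told apart from its own.

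NBN (ENSG00000104320, chr8:89933336-90003228, minus strand), the subunit of the break-binding MRE11 complex that recruits ATM, went the other way. It stood at 4.48, 4.50 and 3.68 CPM in the controls and at 16.4, 14.04 and 9.19 CPM with almonertinib, where library 3 was the lowest but still above all controls. The log2 difference was 1.64 ± 0.19 (SE; edgeR adjusted p = 2.32e-06). ATR (ENSG00000175054, chr3:142449235-142578826, minus strand), the kinase of stalled forks, was at 4.22, 4.16 and 3.06 CPM in the controls and 11.3, 10.4 and 6.27 CPM with almonertinib. No value overlapped, and the log2 difference was 1.28 ± 0.23 (edgeR adjusted p = 0.00014). ATM (ENSG00000149311, chr11:108222484-108369102, plus strand) rose by a log2 difference of 1.93 ± 0.39 (edgeR adjusted p = 0.000354), from 0.729, 1.41 and 0.487 CPM to 4.32, 3.79 and 1.90 CPM. After removal of the trend these 3 differences were smaller, at 1.01 for NBN, 0.77 for ATR and 1.33 for ATM, and all 3 were still called.

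RAD54L (ENSG00000085999, chr1:46247688-46278473, plus strand), a motor protein of strand exchange, was at 46.1, 44.2 and 43.2 CPM in controls and 21.1, 23.0 and 26.1 CPM with almonertinib, without overlap. It fell by 0.92 ± 0.09 on the log2 scale (SE; edgeR adjusted p = 4.54e-07). TIMELESS (ENSG00000111602, chr12:56416373-56449403, minus strand), which protects replication forks, was at 80.0, 65.9 and 71.5 CPM against 36.4, 43.9 and 40.02 CPM, again apart. Its log2 difference was -0.85 ± 0.10 (edgeR adjusted p = 1.67e-06).

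By role, 3 of the 7 kinase and fork genes (ATM, ATR and TOPBP1, the activator of ATR) were higher and 2 lower. MRE11, RAD50 and NBN, the break-binding complex, were all higher, and RBBP8 and EXO1 of end resection were not called. In the BRCA complexes 4 of 5 were higher (BRCA1, BARD1, BRCA2 and BRIP1, with differences from 0.51 to 0.86 log2). None of the 8 strand exchange genes was higher and 5 were lower, among them RAD51D (-1.27) and XRCC2 (-0.88). Among the 9 core Fanconi genes FANCA (-1.05), UBE2T (-0.67) and FANCC (-0.59) were lower, a share near the 27.8% of all genes. FANCD2, PARP1 and XRCC3 were lower too, and WRN and the mismatch sensor MSH6 were higher. The calls of MRE11, BARD1, BRCA2, BRIP1, PARP1 and MSH6 ended when the trend was removed, with values of 0.29, -0.09, 0.07, 0.13, -0.17 and 0.01, whereas CHEK1, RBBP8, RAD51B and RMI1 became lower and RMI2 higher.

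**Figure D1:**
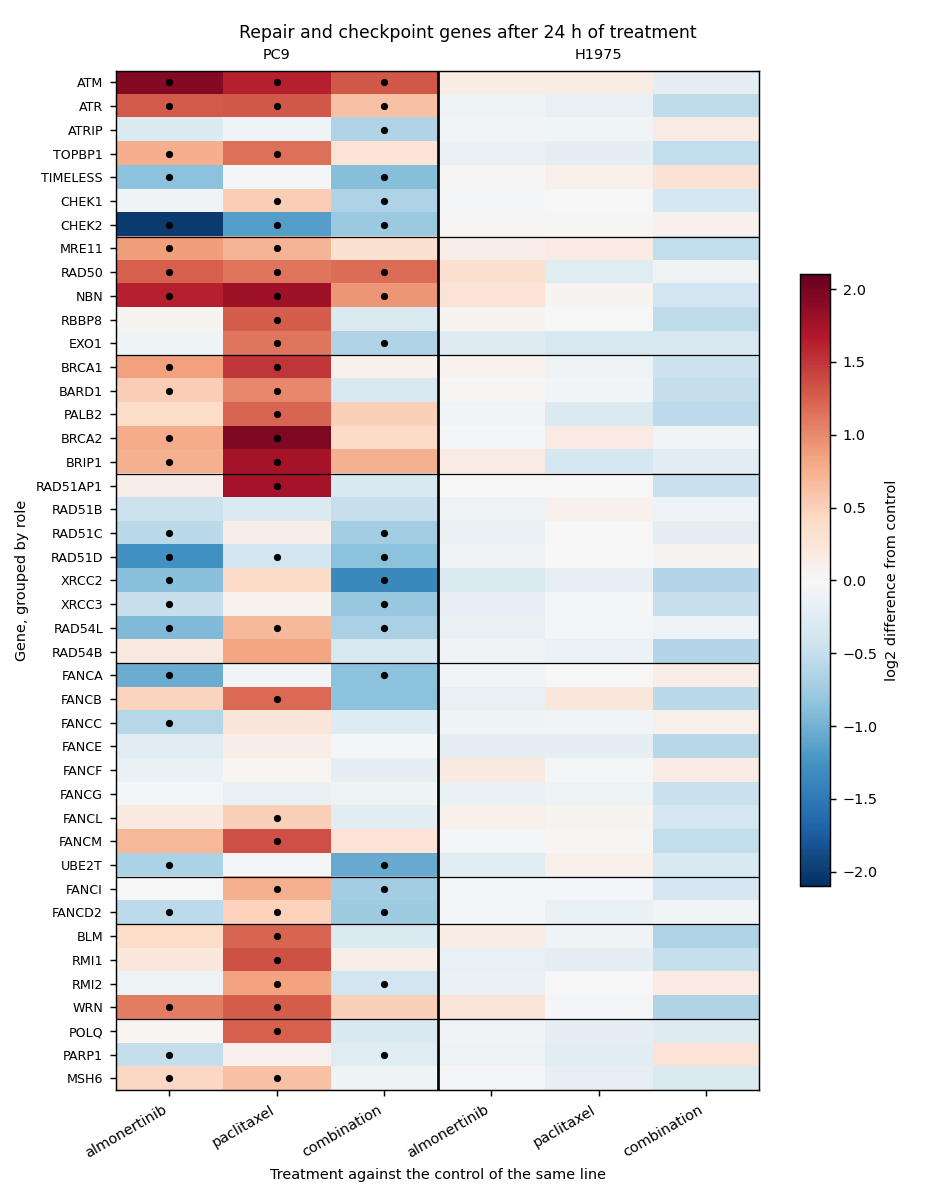
Log2 difference from the control of the same line for each of the 43 genes (rows, grouped by role) under each treatment (columns), with dots on members called at an edgeR adjusted p under 0.05. In PC9 the paclitaxel column is mostly red (27 higher, 2 lower) and the combination column mostly blue (4 higher, 16 lower), and no H1975 cell carries a dot.

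PC9 under paclitaxel showed a rise in most of the pathway. Here 27 of 43 members were higher than control and 2 lower, where 27% of all genes tested were higher and 28% lower. The median log2 difference of the members was 0.75 and that of all genes -0.01. Removing the trend gave 21 higher and 3 lower with a median of 0.38, where 23.6% and 28.8% of all genes were called. These comparisons use the same PC9 control libraries as those with almonertinib and the combination, so the 3 sets of values share their baseline.

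RAD51AP1 (ENSG00000111247, chr12:4538798-4560048, plus strand), which stimulates strand pairing, stood at 4.53, 3.02 and 2.29 CPM in the controls and 12.4, 11.2 and 9.99 CPM with paclitaxel. All treated libraries lay above all controls, at a log2 difference of 1.75 ± 0.23 (SE; edgeR adjusted p = 2.07e-05). NBN reached 14.2, 14.6 and 15.02 CPM, a difference of 1.78 ± 0.19 (edgeR adjusted p = 2.67e-06). RAD54L rose to 72.4, 69.3 and 71.9 CPM, without overlap, by 0.68 ± 0.09 (edgeR adjusted p = 2.07e-05). With the trend removed its value was 0.84.

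All 5 genes of the BRCA complexes, all 5 of break recognition and end resection and all 4 of the helicase group were higher. BRCA2, a central mediator of homologous recombination, gave a log2 difference of 1.95 ± 0.30, from 1.56, 2.22 and 0.973 CPM to 6.16, 6.57 and 5.76 CPM (edgeR adjusted p = 6.85e-05). BRIP1, the BRCA1-bound helicase, differed by 1.75, BRCA1 by 1.503, PALB2 by 1.23 and BARD1 by 1.01. In the helicase group RMI1 (1.34), WRN (1.27), BLM (1.22) and RMI2 (0.85) were higher, as was POLQ (1.25), the polymerase of end joining at microhomologies. Of the checkpoint genes ATM (1.63), ATR (1.31), TOPBP1 (1.15) and CHEK1 (0.51) were higher. FANCI, 1 of the pair of ubiquitin-marked Fanconi proteins, went from 30.5, 28.1 and 22.6 CPM to 45.1, 48.4 and 43.5 CPM.

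CHEK2 was the main exception. Its level with paclitaxel was 37.6, 40.4 and 35.5 CPM, below every control, a log2 difference of -1.16 ± 0.11 (SE; edgeR adjusted p = 6.85e-07). RAD51D, of the strand exchange group, was also lower, at 7.64, 6.53 and 6.35 CPM against 9.27, 9.80 and 8.13 CPM (-0.41 ± 0.15, edgeR adjusted p = 0.0283). That call of RAD51D ended in 4 of the 6 fits that leave out 1 library of the groups compared, with adjusted p from 0.0672 to 0.117. TIMELESS, UBE2T, XRCC3, RAD51C, FANCA and PARP1 had differences between -0.06 and 0.12 and were not called.

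With the trend removed, calls with paclitaxel ended for CHEK1, MRE11, RAD50, BARD1, FANCB, FANCL, FANCM, FANCD2 and MSH6, and the value changed sign for CHEK1 (-0.16), MRE11 (-0.08), FANCL (-0.03) and MSH6 (-0.05). Those still higher included BRCA2 (1.01), RAD51AP1 (1.02), NBN (1.00), RMI2 (1.06), BRCA1 (0.93), BRIP1 (0.93) and PALB2 (0.84). XRCC3, FANCC and FANCE became higher and RAD51B lower.

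**Figure D2:**
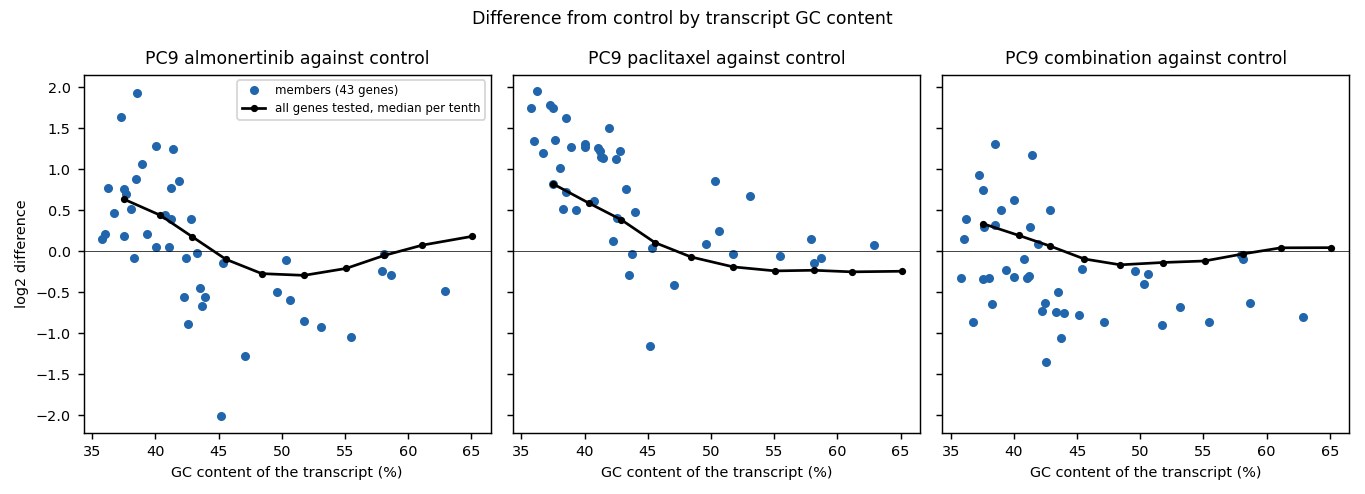
Log2 difference from control (vertical axis) against the GC content of the transcript in percent (horizontal axis) for the 43 members (blue) and the median of all genes tested in 10 bins of GC content (black), in PC9. With paclitaxel the bin of lowest GC content had a median of 0.82 and that of the highest a median of -0.24. The members also fall with GC content, but most lie above the black line, and CHEK2 and RAD51D are among those below it. The members' median with the length and GC trend removed was still 0.38.

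Across the 43 members, the rank correlation of the log2 difference with GC content was -0.718 for almonertinib, -0.77 for paclitaxel and -0.444 for the combination against control, compared with -0.176, -0.498 and -0.105 over all genes tested. Members share libraries, and long transcripts are also poor in GC, so these values only describe the set. With the trend removed the members' correlations were -0.359, -0.344 and -0.257.

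**Figure D3:**
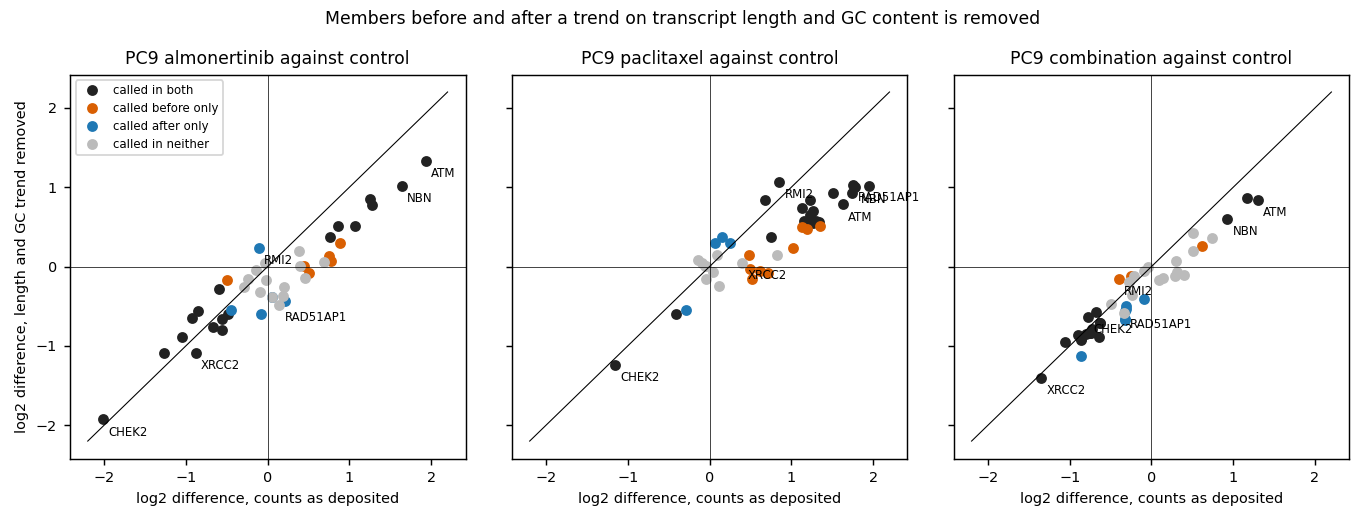
Log2 difference of each member against control from counts as deposited (horizontal axis) and after removal of the length and GC trend (vertical axis) in PC9; the diagonal marks equal values and colours mark whether the gene was called before, after or both. Most members with paclitaxel lie below the diagonal, whereas CHEK2 lies close to it in each panel.

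With the combination in PC9 UBE2T, TIMELESS, FANCI, FANCD2 and 5 of 8 strand exchange genes were below control. In all, 4 members were higher, namely ATM, ATR, RAD50 and NBN, and 16 were lower, where 24.7% of all genes were higher and 26% lower, and 23 were not called. The median of the members was -0.31, that of all genes 0.00. With the trend removed 3 were higher and 21 lower (27.7% and 30.9% of all genes), and the call of ATR ended (0.26).

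UBE2T (ENSG00000077152, chr1:202331657-202341980, minus strand) was at 53.5, 48.3 and 51.2 CPM in controls and 24.0, 23.9 and 25.8 CPM with both drugs. It fell by 1.05 ± 0.10 on the log2 scale (SE; edgeR adjusted p = 6.73e-07), with the groups well apart. TIMELESS was at 38.7, 39.0 and 38.7 CPM, a difference of -0.90 ± 0.10 (edgeR adjusted p = 1.34e-06), and RAD54L at 27.8, 28.8 and 26.6 CPM, a difference of -0.68 ± 0.09 (edgeR adjusted p = 1.49e-05). NBN was at 7.33, 9.02 and 7.85 CPM, above every control, by 0.93 ± 0.20 (edgeR adjusted p = 0.00086).

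ATM, at 2.28, 2.79 and 1.36 CPM, overlapped its controls in 1 library, and its difference of 1.30 ± 0.40 (edgeR adjusted p = 0.011) was not called without PC9 control library 1 (1.17), control library 3 (1.04) or combination library 2 (1.08). RAD50, which bridges broken ends, gave 1.17 ± 0.40 (edgeR adjusted p = 0.0178) on raw counts of 23, 33 and 21, and its call ended without control library 2 (0.81) or combination library 2 (0.99).

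Among the strand exchange genes 5 of 8 were lower, led by XRCC2 (-1.35), RAD51D (-0.87) and XRCC3 (-0.80). FANCI (-0.74) and FANCD2 (-0.75) were both lower, as were FANCA (-0.86), CHEK1 (-0.64), EXO1 (-0.63), ATRIP (-0.63), the partner of ATR, and CHEK2 (-0.77). No gene of the BRCA complexes was called, with values from -0.32 for BARD1 to 0.74 for BRIP1. RMI2 (-0.40) and PARP1 (-0.25) were lower from the counts as deposited, and removal of the trend ended both calls (-0.15 and -0.12). It added RBBP8, BARD1, RAD51AP1, FANCB, BLM, POLQ and MSH6 to those lower.

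Set against paclitaxel alone, the combination had lower levels of most of the list. In PC9, 35 of 43 members were lower and 1 was higher, where 22.4% of all genes tested were lower and 21.7% higher. The median log2 difference was -0.86 for the members and -0.05 for all genes. With the trend removed 32 were lower and 1 higher (22.4% and 24% of all genes). The calls of RAD51D, RAD54B, FANCL and WRN then ended (-0.33, -0.72, -0.32 and -0.36) and FANCE was added (-0.39).

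RAD54L went from the 72.4, 69.3 and 71.9 CPM of paclitaxel to 27.8, 28.8 and 26.6 CPM, a mean of 71.2 ± 1.68 against 27.7 ± 1.14 (SD, n = 3 each). The log2 difference was -1.36 ± 0.09 (SE; edgeR adjusted p = 4.25e-08). FANCI (ENSG00000140525, chr15:89243949-89317261, plus strand) was at 14.3, 19.4 and 15.1 CPM with both drugs, a difference of -1.49 ± 0.13 from paclitaxel (edgeR adjusted p = 6.07e-07). Neither gene had overlapping libraries.

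RAD51AP1 (-2.07 ± 0.23), FANCB (-2.05 ± 0.33), EXO1, the resection nuclease (-1.76 ± 0.19), and XRCC2 (-1.75 ± 0.20) had differences larger still. EXO1 was at 18.3, 16.6 and 17.5 CPM with paclitaxel and at 4.09, 6.27 and 5.09 CPM with both drugs. All 5 genes of the BRCA complexes, from PALB2 at -0.72 to BRCA2 at -1.56, and all 4 of the helicase group were lower. The members not called were ATM, MRE11, RAD50, RAD51B, FANCE, FANCF and FANCG, with values between -0.40 and 0.05.

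CHEK2 was the only member higher, at 47.4, 49.4 and 51.7 CPM with both drugs against 37.6, 40.4 and 35.5 CPM with paclitaxel. The libraries did not overlap and the log2 difference was 0.39 ± 0.11 (SE; edgeR adjusted p = 0.0085), but without paclitaxel library 3 it was 0.32 and not called (edgeR adjusted p = 0.0532).

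**Figure D4:**
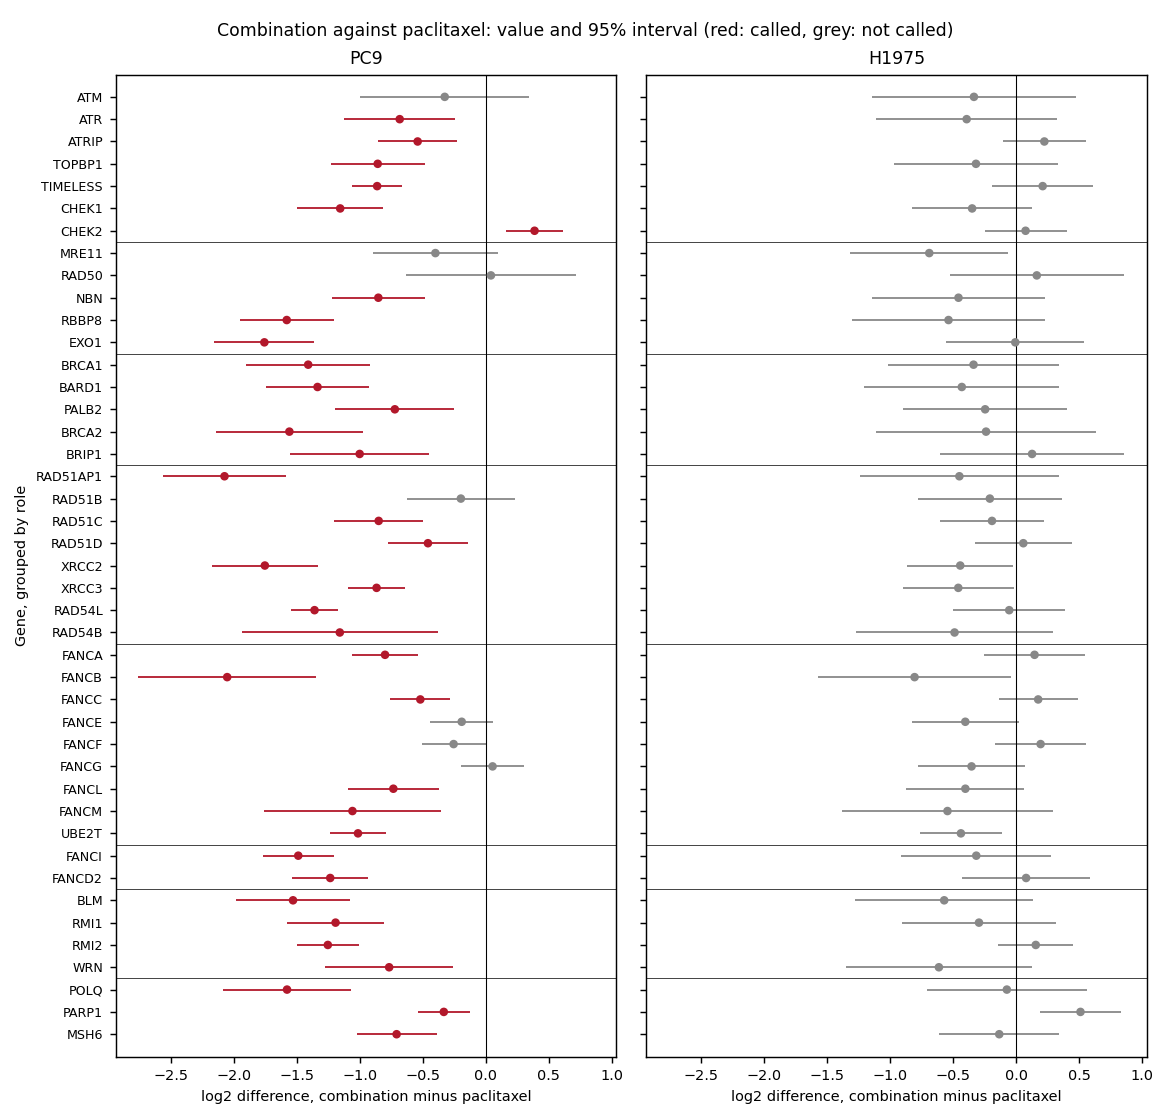
Log2 difference of combination minus paclitaxel (points) with its 95% interval (bars) for each member in PC9 and H1975; red points were called at an edgeR adjusted p under 0.05. In PC9 35 members lie to the left of 0 as called and CHEK2 to the right, and in H1975 no member was called.

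Against almonertinib alone the combination differed less in PC9, with 1 member higher and 11 lower, where 10.3% of all genes were higher and 9.74% lower. CHEK2 was the member higher, by 1.24 ± 0.11 (SE; edgeR adjusted p = 1.32e-06), its 47.4, 49.4 and 51.7 CPM lying above the 22.2, 21.0 and 19.8 CPM of almonertinib. FANCI was lower, with a log2 difference of -0.72 ± 0.14 (edgeR adjusted p = 0.00153), from 30.1, 27.0 and 23.4 CPM, and BARD1 of the BRCA1 ubiquitin ligase differed by -0.83 ± 0.20 (edgeR adjusted p = 0.0072), from 7.87, 7.41 and 5.06 CPM to 3.85, 4.35 and 3.20 CPM. The other members lower were ATR, CHEK1, NBN, BRCA1, XRCC3, FANCB, UBE2T, BLM and MSH6. With the trend removed 1 was higher and 13 lower, among 3453 genes called against 2570 before. The calls of CHEK1 (-0.28) and UBE2T (-0.19) then ended, and ATRIP, TOPBP1, TIMELESS and RMI2 were added. This count depended on single libraries: without almonertinib library 3, which stood apart, it was 22 (4 higher and 18 lower, against 15.3% and 17.1% of all genes), and it was 4 without combination library 1 (1274 of 12890 genes called, close to the members' share) and 6 without combination library 3 (1616 of 12882).

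**Figure D5:**
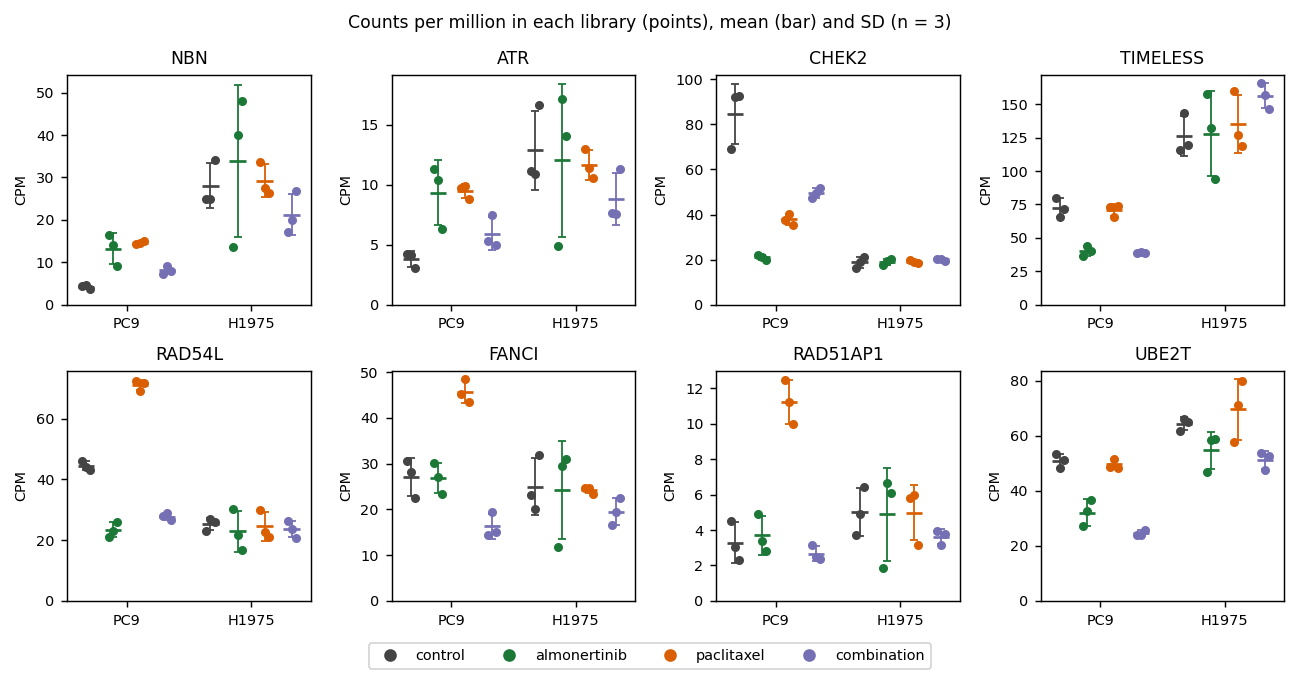
CPM in each library (points), with the mean (bar) and SD (whiskers, n = 3), for 8 members in the 4 groups of each line. CHEK2 is at 69.2 CPM or more in the PC9 controls and at 51.7 CPM or less in every treated PC9 library, RAD54L is highest in PC9 paclitaxel, and the H1975 groups overlap for most of the 8.

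In H1975 no member was called in any of the 5 comparisons. Over all 12345 genes tested, 1.95% were called with almonertinib, 0.64% with paclitaxel and 2.46% with the combination against control, and 0% for the combination against either drug. At an unadjusted p under 0.05 edgeR counted 0, 0, 5, 5 and 6 members in that order, and DESeq2 called 0, 0, 0, 0 and 1. The shares of all genes under these settings are not given here, so the counts show nothing particular to the members. Differences of the members from control ran from -0.30 to 0.34 log2 with almonertinib, from -0.37 to 0.24 with paclitaxel and from -0.65 to 0.31 with the combination.

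CHEK2 was at 16.2, 18.7 and 21.3 CPM in the H1975 controls, 17.7, 19.2 and 20.4 CPM with almonertinib, 19.8, 18.8 and 18.6 CPM with paclitaxel and 20.5, 20.2 and 19.5 CPM with both. All 4 groups overlapped. XRCC2, of the strand exchange group, had the smallest p against control, at 15.03, 14.2 and 18.2 CPM in controls and 11.2, 10.7 and 9.03 CPM with both drugs. Its libraries did not overlap, and the log2 difference was -0.62 ± 0.20 (SE; edgeR adjusted p = 0.112). For the combination against control, removal of the trend called 5 members lower, namely TOPBP1, XRCC2 (-0.53), XRCC3, FANCE (-0.56) and FANCG, where 7.74% of all genes were lower.

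The 3 H1975 libraries that stood apart moved these counts. Leaving these libraries out was chosen after seeing the data and left 2 libraries each for control, almonertinib and paclitaxel. Without the 3 libraries 13 members were higher and 4 lower with almonertinib than in control, where 23.9% and 21.6% of all genes were called. With the combination 1 was higher and 6 lower than in control (15.8% and 19.2% of all genes), and with paclitaxel edgeR called 0. Against almonertinib the combination then had 4 members higher and 22 lower (15.1% and 19.2%), and against paclitaxel 2 higher and 9 lower (16.7% and 16.3%). In those fits NBN differed by 0.82 ± 0.16 with almonertinib (edgeR adjusted p = 0.000858). For the combination against almonertinib it differed by -1.05 ± 0.14 (edgeR adjusted p = 0.000197). The libraries left out held its highest control (34.2 CPM) and its lowest almonertinib value (13.7 CPM), so both differences rest partly on the omission. When the trend was removed as well, NBN under almonertinib was 0.26 and not called, no member was higher and 4 were lower with almonertinib (17% of all genes lower), and 8 were lower and none higher for the combination against almonertinib (9.13% of all genes lower).

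FANCG and FANCE of the Fanconi core and XRCC3 were lower in the combination than in control and than in paclitaxel in the fits without those libraries, with the trend removed or not. FANCG was at 143, 122 and 97.2 CPM in the 3 controls and 93.2, 87.8 and 81.7 CPM with both drugs. PARP1, at 256, 247 and 236 CPM with both drugs and 197, 167 and 153 CPM with paclitaxel, did not overlap and gave 0.51 ± 0.15 with all libraries (edgeR adjusted p = 0.14). Without the libraries that stood apart, PARP1 was higher by 0.62 ± 0.10 (edgeR adjusted p = 0.000448), and by 0.31 with the trend removed.

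Tested directly, the responses of the lines differed for a minority of members. PC9 minus H1975 was higher for 3 and lower for 6 members with almonertinib (5.53% and 11% of all 13380 genes), higher for 17 and lower for 1 with paclitaxel (9.9% and 7.21%), and higher for 1 and lower for 8 with the combination (6.99% and 11%). Without the libraries that stood apart the counts were 4 and 9, 23 and 1, and 8 and 13 (4031, 4798 and 5187 of 13454 genes called). After removal of the trend they were 5 and 10, 16 and 1, and 8 and 11 (3940, 3565 and 4111 of 13380 genes). Without H1975 control library 3 the paclitaxel count was 9 (1113 of 13482 genes), and without PC9 control library 3 it was 11 (1228 of 13476). CHEK2 was lower in all 3, with differences of -2.06 ± 0.18, -1.17 ± 0.17 and -0.88 ± 0.17 log2 (SE; edgeR adjusted p = 8.59e-09, 0.000133 and 0.00104). RAD51D (-1.22 ± 0.23, edgeR adjusted p = 0.000733) followed CHEK2 in the almonertinib response. Removing the trend ended the difference of FANCC with almonertinib (-0.19) and those of RAD51D, RMI2 and PARP1 with the combination (-0.67, -0.24 and -0.19).

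In the response to paclitaxel 4 of 5 genes of the BRCA complexes and all 4 of the helicase group were higher in PC9 than in H1975. RMI2, which completes the BLM dissolution complex, differed by 0.84 ± 0.17 (SE; edgeR adjusted p = 0.00216). It was at 12.6, 14.5 and 14.04 CPM in PC9 controls and 25.4, 23.6 and 25.0 CPM with paclitaxel, and at 20.7, 22.1 and 22.6 CPM and 22.5, 21.8 and 21.9 CPM in H1975. EXO1 differed by 1.48 ± 0.32 (edgeR adjusted p = 0.00411), with BRIP1 at 2.12, RAD51AP1 at 1.78 and NBN at 1.74. Removing the trend ended the differences of BRCA2, WRN and MSH6 (0.83, 0.57 and 0.08).

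For NBN the responses to almonertinib and to the combination differed by 1.35 ± 0.40 and 1.32 ± 0.41 (edgeR adjusted p = 0.0224 and 0.0267), and for ATR the response to almonertinib by 1.36 ± 0.42 (edgeR adjusted p = 0.028). In H1975 NBN was at 24.9, 25.0 and 34.2 CPM in controls and 13.7, 40.1 and 48.0 CPM with almonertinib, so library 1 of that group lay below and the other 2 above every control. The call for NBN with almonertinib ended without PC9 control library 3 (1.29), PC9 almonertinib library 1 (1.16) or H1975 control library 3 (1.19). The same 3 omissions ended that of ATR (1.25, 1.19 and 1.14), as did leaving out PC9 almonertinib library 2 (1.30). The call of NBN with the combination ended without any of 5 libraries, with values from 1.16 to 1.30. TIMELESS differed by -1.22 ± 0.22 in the combination response (edgeR adjusted p = 0.000364). Its H1975 values were 116, 143 and 119 CPM in controls and 166, 157 and 147 CPM with both drugs, all above the controls, where PC9 fell.

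The other genes of these pathways, taken from lists that exclude the members, were read in PC9 by the same test. Over all genes the shares higher and lower were 28.9% and 27.8% with almonertinib, 27% and 28% with paclitaxel, 24.7% and 26% with the combination, and 21.7% and 22.4% for the combination against paclitaxel, and many of the counts below lie near them. Of 26 other homologous recombination genes, 4 were higher and 11 lower with almonertinib, 8 and 5 with paclitaxel, 2 and 9 with the combination, and 1 and 9 for the combination against paclitaxel. After removal of the trend these were 3 and 12, 4 and 5, 1 and 11, and 2 and 10. The shares of all genes were then 30.1% and 30.7%, 23.6% and 28.8%, 27.7% and 30.9%, and 24% and 22.4%. PSMC3IP, a cofactor of strand exchange, was lower with the combination than with paclitaxel (-1.74).

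Of 15 other Fanconi genes, 4 were higher and 3 lower with almonertinib, 7 and 3 with paclitaxel, 2 and 6 with the combination and 0 and 6 for the combination against paclitaxel, or 2 and 5, 5 and 2, 2 and 7, and 0 and 9 after removal of the trend. USP1, which strips ubiquitin from FANCD2, rose with paclitaxel (1.44 ± 0.20, edgeR adjusted p = 3.2e-05), and the ubiquitin ligase RFWD3 fell with almonertinib (-1.07) and with the combination (-0.91). Of 31 other checkpoint genes 7 were higher and 11 lower, then 11 and 7, 5 and 15, and 1 and 17, in the same order of comparisons, and 7 and 11, 11 and 6, 3 and 14, and 3 and 12 with the trend removed. The phosphatase CDC25A, which drives entry into DNA synthesis, was lower in all 4, at -2.13, -0.92, -2.13 and -1.21 log2.

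The 10 genes of non-homologous end joining, which rejoins ends without a template, had 4 higher and 2 lower with almonertinib, 4 and 2 with paclitaxel, 1 and 2 with the combination and 2 and 5 for the combination against paclitaxel, or 2 and 3, 1 and 1, 1 and 4, and 2 and 4 after removal of the trend. For 13 other mismatch and break repair genes the counts were 4 and 4, 5 and 1, 1 and 5, and 1 and 7, and 5 and 4, 8 and 1, 1 and 5, and 2 and 6 with the trend removed. The flap nuclease FEN1 was lower in all 4 (-1.08, -0.35, -1.30 and -0.94), but its call with paclitaxel ended with the trend removed (-0.15, edgeR adjusted p = 0.103). Of 25 genes of the G1-S transition and of proliferation, which include MKI67, TOP2A, CDK1 and CCNA2, 2 were higher and 18 lower with almonertinib, 12 and 2 with paclitaxel, 0 and 22 with the combination, and 0 and 25 for the combination against paclitaxel, or 1 and 20, 14 and 3, 0 and 23, and 0 and 25 after removal of the trend. RRM2, a subunit of ribonucleotide reductase, had a log2 difference of -1.66 for the combination against control and of -1.89 against paclitaxel. Of 20 target genes of p53, 5 were higher and 5 lower with almonertinib, 6 and 9 with paclitaxel, 8 and 6 with the combination, and 4 and 6 for the combination against paclitaxel, and 7 and 6, 6 and 9, 8 and 7, and 5 and 6 with the trend removed. In bulk RNA, fewer cells of a cycle phase and less RNA per cell cannot be told apart, and the part of the proliferation genes in the members' differences was not tested.

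The annotation places 18 members over another coding gene on either strand, among them XRCC3 over KLC1, NBN over DECR1, RAD54L over LRRC41, FANCI over POLG and MSH6 over FBXO11, and 6 members have named pseudogenes. Their counts are uncertain to the extent that reads were shared.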

How the data were processed

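Total RNA came from TRIzol extraction and was sequenced after a SMART-RNAseq preparation, per the labels' protocols. The authors deposited the counts of reads for each gene, not normalised, and HISAT2 2.2.1, HTSeq and GRCh38 are named in the submitters' processing notes; the strand and annotation counted are not given in the sources used here. Symbols, positions and transcript sequences came from GENCODE v29 and NCBI tables. Members, lists and tests were chosen with earlier results of these data known.

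A fit per line over its 12 libraries was made in edgeR 4.0.16 under R 4.3.3: filterByExpr left 12796 genes in PC9 and 12345 in H1975, TMM factors scaled libraries (0.856 to 1.15), and two-sided quasi-likelihood tests were Benjamini-Hochberg adjusted over all genes tested. Genes with an adjusted p under 0.05 are called, and "rose", "fell", "higher" and "lower" refer to them. Differences between lines used all 24 libraries (13380 genes). CPM are counts scaled by library size and TMM factor. The trend was a spline with 5 degrees of freedom each for length and GC content. Principal transcripts were taken where annotated, otherwise the longest coding one. The spread between libraries (biological coefficient of variation) was 0.119 in PC9 and 0.195 in H1975. The scripts were tested on simulated data.

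Members were named in full by rule: up to 3 higher and 3 lower with the smallest p against control, up to 2 each in the other comparisons, and those whose call the trend ended. BRCA2, EXO1, XRCC2, FANCG and PARP1 were added after their values were seen. A library stood apart if its mean correlation with the other 2 was over 0.005 below theirs. Fits without such libraries, and those joining the trend with the block, were chosen after seeing the data. The repeat number is not said to mark a shared culture. Deviations of same-numbered libraries correlated above 0.1 in all pairs for PC9 control with almonertinib (0.17, 0.151 and 0.50), PC9 control with paclitaxel (0.15, 0.143 and 0.189) and H1975 control with combination (0.141, 0.211 and 0.414), while in the remaining 9 comparisons of groups at least 1 pair did not, and the reported fits have no block. Alternatives were RLE factors, no or a stricter filter (1 CPM in 3 libraries and a mean of 5), DESeq2 1.42.0, a length trend alone, the block, fits of all or fewer groups, and leaving out libraries. Of the genes in the lists, 1 is not reported here.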

Additional observations from a re-analysis of the deposited data

Results flagged for a closer look

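The responses of PC9 and H1975 were tested against each other, and each member whose difference passed is listed here, as PC9 minus H1975 on the log2 scale. For almonertinib these 9 were ATM at 1.76, ATR at 1.36, NBN at 1.35, CHEK2 at -2.06, RAD51D at -1.22, FANCA at -1.02, TIMELESS at -0.90, RAD54L at -0.79 and FANCC at -0.53. For paclitaxel they were 18. BRIP1 stood at 2.12, BRCA2 at 1.79, RAD51AP1 at 1.78, NBN at 1.74, BRCA1 at 1.62, PALB2 and RMI1 at 1.54 each and EXO1 at 1.48. ATR and POLQ were at 1.47 each, TOPBP1 at 1.36, BLM and WRN at 1.31 each, RBBP8 at 1.29, RMI2 at 0.84, MSH6 at 0.79 and RAD54L at 0.74, with CHEK2 at -1.17. For the combination these 9 were NBN at 1.32, TIMELESS at -1.22, FANCA at -1, RAD51D at -0.94, CHEK2 at -0.88, ATRIP at -0.81, UBE2T at -0.74, RMI2 at -0.59 and PARP1 at -0.54. Over all 13380 genes the shares higher and lower were 5.53% and 11% for almonertinib, 9.9% and 7.21% for paclitaxel, and 6.99% and 11% for the combination. With the length and GC trend removed, calls ended for FANCC with almonertinib and for BRCA2, WRN and MSH6 with paclitaxel. With the combination they ended for RAD51D, RMI2 and PARP1. Line and dose cannot be told apart in these tests, because PC9 had 2 nM and H1975 1 nM almonertinib, and PC9 0.3 nM and H1975 1 nM paclitaxel.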

How the results depend on the processing

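The counts of called members in PC9 against control and against paclitaxel moved by less than 1.5 times under every alternative but 1: the stricter filter left 19 with paclitaxel, since fewer members were tested. For PC9 combination against almonertinib the count of 12 became 22 without the libraries that stood apart, 2 with all 24 libraries in 1 fit and 4 with only the 2 groups. In H1975 the count of 0 became 17 without those libraries with almonertinib (4 with the trend also removed), and 26 (8) for the combination against almonertinib. For H1975 combination against control it was 5 with the trend removed, 5 with block and trend, 7 without those libraries (10 with the trend removed), 2 with all 24 libraries and 5 with only the 2 groups. Against paclitaxel it was 1 with DESeq2, 11 without those libraries (10 with the trend removed), 2 with all 24 libraries and 1 with only the 2 groups. The difference between lines moved from 9 members to 15 with almonertinib when the trend was removed (14 with the block too) and to 4 with only the 4 groups. With the combination it moved from 9 to 19 when the trend was removed (19 with the block too), 15 with the length trend alone, 14 with DESeq2, 21 without the libraries that stood apart (20 with the trend removed) and 18 with only the 4 groups. Calls over all genes moved as well. For H1975 almonertinib against control 1.95% of all genes were called, and without the libraries that stood apart 23.9% were higher and 21.6% lower. The shares of all genes are not given beside each count here, so a changed count is not by itself particular to the members. The cause was not tested.

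Leaving out single libraries gave 20 to 28 members with PC9 almonertinib, 26 to 30 with paclitaxel and 15 to 21 with the combination against control, 4 to 22 against almonertinib and 29 to 36 against paclitaxel. In H1975 the ranges were 0 to 1, 0 to 0, 0 to 0, 0 to 14 and 0 to 1 in the same order, the 14 without almonertinib library 1, where 1101 of all genes were called. Over all genes the PC9 ranges, in that order, were 6420 to 8093, 5726 to 6418, 5353 to 5915, 1274 to 4184 and 4263 to 5289. Those of H1975 were 99 to 906, 33 to 54, 64 to 419, 0 to 1101 and 0 to 424. Between lines the members' ranges were 5 to 10, 9 to 20 and 6 to 12, with 9 of the 18 for paclitaxel without H1975 control library 3 and 11 without PC9 control library 3, and 5 of the 9 for almonertinib without PC9 control library 3 or almonertinib library 2. Over all genes the ranges between lines were 1594 to 2878, 1113 to 2975 and 1602 to 2419.

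Values that changed sign with the trend removed, with trend and block, and with the trend removed and without the libraries that stood apart were, in that order, -0.0873, -0.0813 and -0.0862 for BARD1 with PC9 almonertinib, and with PC9 paclitaxel -0.16, -0.16 and -0.16 for CHEK1, -0.077, -0.0677 and -0.0778 for MRE11, -0.0336, -0.0276 and -0.0359 for FANCL and -0.0532, -0.0516 and -0.0544 for MSH6. MSH6 with almonertinib changed sign only in the last fit (-0.0674). Of 157 calls of members over all comparisons, 126 were kept with the trend removed, 155 with DESeq2 and 153 with RLE factors. With the replicate block all 157 were kept, and where numbers pair the count was 24 for PC9 almonertinib, 31 for PC9 paclitaxel and 0 for H1975 combination against control; over all genes the last had 202 calls against 304.

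Among all H1975 genes, removal of the trend raised the calls against control from 241 to 1089, from 79 to 486 and from 304 to 1782, and DESeq2 gave 702 for the combination. For PC9 combination against almonertinib all genes called fell from 2570 to 918 with all 24 libraries and to 1318 with 2 groups. Low counts limit RAD50, FANCB, RAD54B, FANCM and ATM in PC9, and BRIP1 and BRCA2 in the PC9 controls.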
